A study of Mus musculus with 12 samples.

Results

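The constitutive proteasome genes were examined in tumour-associated macrophages (TAMs) from mice given picrotoxin or its solvent. Members were taken by symbol, as every gene named Psma, Psmb, Psmc or Psmd with a number, leaving out the interferon-inducible subunits Psmb8, Psmb9 and Psmb10. Of 24781 rows in the table, 37 carried such a symbol and 35 of them had a mean of at least 1 molecule per library. The other two, the testis-specific core subunit Psma8 with 8 molecules in all 12 libraries together and the thymus-specific catalytic subunit Psmb11 with 5, were left out. The 35 comprised 14 genes of the 20S core, 17 genes of the 19S cap, 3 chaperones that assemble the base of the cap (Psmd5, Psmd9 and Psmd10), and Psmc3ip, a factor of meiotic recombination that shares the symbol but is no proteasome subunit.

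The proteasome is the ATP-driven protease that degrades proteins tagged with ubiquitin. Its 20S core is a barrel of stacked rings, in which the alpha subunits form the gate and the beta subunits hold the proteolytic sites, and its 19S cap binds the ubiquitin chain, removes it, unfolds the substrate and feeds it into the barrel. In macrophages and other immune cells, interferon induces Psmb9, Psmb10 and Psmb8, which take the places of the catalytic subunits Psmb6, Psmb7 and Psmb5 in newly built cores and alter the peptides offered on major histocompatibility complex class I.

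All mice were wild type and carried tumours of MC38, a mouse colon adenocarcinoma line placed in the skin, and they received intraperitoneal picrotoxin, an antagonist of the ionotropic type A receptor of the transmitter GABA, or DMSO, starting before inoculation. On day 7 after inoculation, 100 CD45+CD11b+F4/80high cells were sorted from the tumour for each library, with 6 libraries per group. The wild-type mice were C57BL/6J or C57BL/6N, adult and of both sexes, and the sources do not say which libraries came from which. The study's methods assign each library its own mouse, whereas a figure legend gives fewer mice than libraries, so p-values below would be too small if libraries shared a mouse.

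Libraries held 201697 to 309617 molecules, each molecule being a barcoded cDNA counted once, and 0 molecules in the smallest library allowed a share of up to 0.00149% (3 molecules, counting error only). All 12 macrophage markers on the list were detected, with summed counts of 1999 to 3161 molecules in DMSO and 2190 to 2955 in picrotoxin libraries. All 12 were tested, and 2 were higher with picrotoxin at an unadjusted p under 0.05 in edgeR. Of 15 fibroblast and matrix markers, 14 were detected and Fap was at 0. At the same threshold 10 of 11 tested were lower with picrotoxin, against 7.77% of all tested genes in either direction. No marker of any list had an adjusted p under 0.05. Summed fibroblast and matrix markers lay at 19 to 873 molecules in DMSO, with the maximum in replicate 5, and 10 to 68 in picrotoxin libraries. Summed markers of T and NK cells reached 23 molecules in picrotoxin 6 and 2 in the next highest library, picrotoxin 3. Those of B cells reached 3, of neutrophils 10 and of dendritic cells 6, and those of epithelial tumour cells lay at 8 to 21. Detected were 6 of 10 T and NK, 1 of 5 B, 2 of 5 neutrophil, 3 of 5 dendritic and 2 of 5 epithelial genes. Cd3e, Ly6g, Flt3 and Epcam were among those at 0 throughout. In each list 1 gene was tested, and those of T and NK and of epithelial tumour cells were higher with picrotoxin (log2 fold change 3.74 and 0.70, unadjusted p under 0.05 in edgeR). Fewer cells of a type and less RNA per cell cannot be told apart in these sums.

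The 250 bases before the RefSeq start are shown for Psmb5 and Psmb6, the catalytic subunits whose estimates lay farthest from 0 and on opposite sides of it, and for the ubiquitin receptor Psmd4, the member with the smallest p-value after Psmb6. All are 5′ to 3′ on the strand of the gene (GRCm38.p6), and capitals mark the core of the antioxidant response element, TGACNNNGC, in the first pair and the CCAAT box, here on the opposite strand, in Psmd4. The windows lie at chr14:54617996-54618245 on the minus strand, chr11:70525107-70525356 on the plus strand and chr3:95042615-95042864 on the minus strand.
Psmb5: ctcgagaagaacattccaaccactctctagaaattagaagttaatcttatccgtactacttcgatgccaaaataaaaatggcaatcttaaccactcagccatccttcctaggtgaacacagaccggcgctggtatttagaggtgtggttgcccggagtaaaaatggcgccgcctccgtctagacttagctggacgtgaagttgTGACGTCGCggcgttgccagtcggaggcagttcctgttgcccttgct
Psmb6: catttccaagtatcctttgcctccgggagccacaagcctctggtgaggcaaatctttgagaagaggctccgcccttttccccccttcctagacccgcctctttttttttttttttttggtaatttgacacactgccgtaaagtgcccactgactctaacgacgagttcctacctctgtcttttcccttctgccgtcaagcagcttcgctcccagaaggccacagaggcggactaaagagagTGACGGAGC
Psmd4: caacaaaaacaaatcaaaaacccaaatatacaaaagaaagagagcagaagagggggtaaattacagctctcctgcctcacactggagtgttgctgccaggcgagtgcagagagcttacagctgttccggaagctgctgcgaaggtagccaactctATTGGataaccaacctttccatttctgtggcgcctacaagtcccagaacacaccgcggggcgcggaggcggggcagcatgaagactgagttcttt

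The element core began 47 bases before the start of Psmb5 and 9 bases before that of Psmb6, and the CCAAT box began 95 bases before that of Psmd4. Of 35 members, 29 matched a RefSeq window, and Psmb1, Psmb2, Psmb7, Psmc3, Psmd3 and Psmd7 did not. On either strand, TGACNNNGC occurred in 5 of 29 (Psmb5, Psmb6, Psmc6, Psmd9 and Psmd12), or 17.2%, against 14% of 7578 tested genes and 11.5% of all 27025 genes with a window. The corresponding shares for CCAAT were 41.4% (12 of 29), 40.6% and 37.5%, and those for the GC box GGGCGG were 58.6% (17 of 29), 65.5% and 35.4%. The core of ETS factor sites, CCGGAA, was held by 48.3% (14 of 29), against 28% and 13.6%. These are matches of letters in a window, and no binding was measured.

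To examine whether picrotoxin altered the level of proteasome transcripts, each gene was tested by the quasi-likelihood test of edgeR, adjusted by Benjamini-Hochberg over all 9580 genes with a mean above 1 normalised molecule. None of the 35 members passed an adjusted p of 0.05 (0 of 35, against 0.0522% of all tested genes), and the smallest adjusted p was 0.683. At an unadjusted p under 0.05 the count was also 0 of 35, against 7.77% of all tested genes in edgeR, and 0 of 35 against 3.82% in DESeq2, where the smallest p among members was 0.0968. The 6 DMSO and the 6 picrotoxin libraries overlapped for every member (0 of 35 separate, against 0.386% of all tested genes). All 35 members passed the filter on low values.

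The estimates were small and mostly on one side. With picrotoxin, 27 of 35 log2 fold changes lay below 0 and 8 above, a share below of 77.1% where all tested genes gave 50.8% and those with a mean of at least 10 molecules gave 46.4%. The median log2 fold change was -0.072 for the members, -0.064 for the 20S core and -0.077 for the 19S cap, against -0.0060 for all tested genes. The 95% interval lay within 1 on the log2 scale on either side of 0 for 33 of 35 members, Psmd9 and Psmc3ip being the exceptions, and within 0.5 for 24. A change of 2-fold in either direction was thus outside the interval of each of the 14 core and 17 cap genes.

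**Figure D1:**
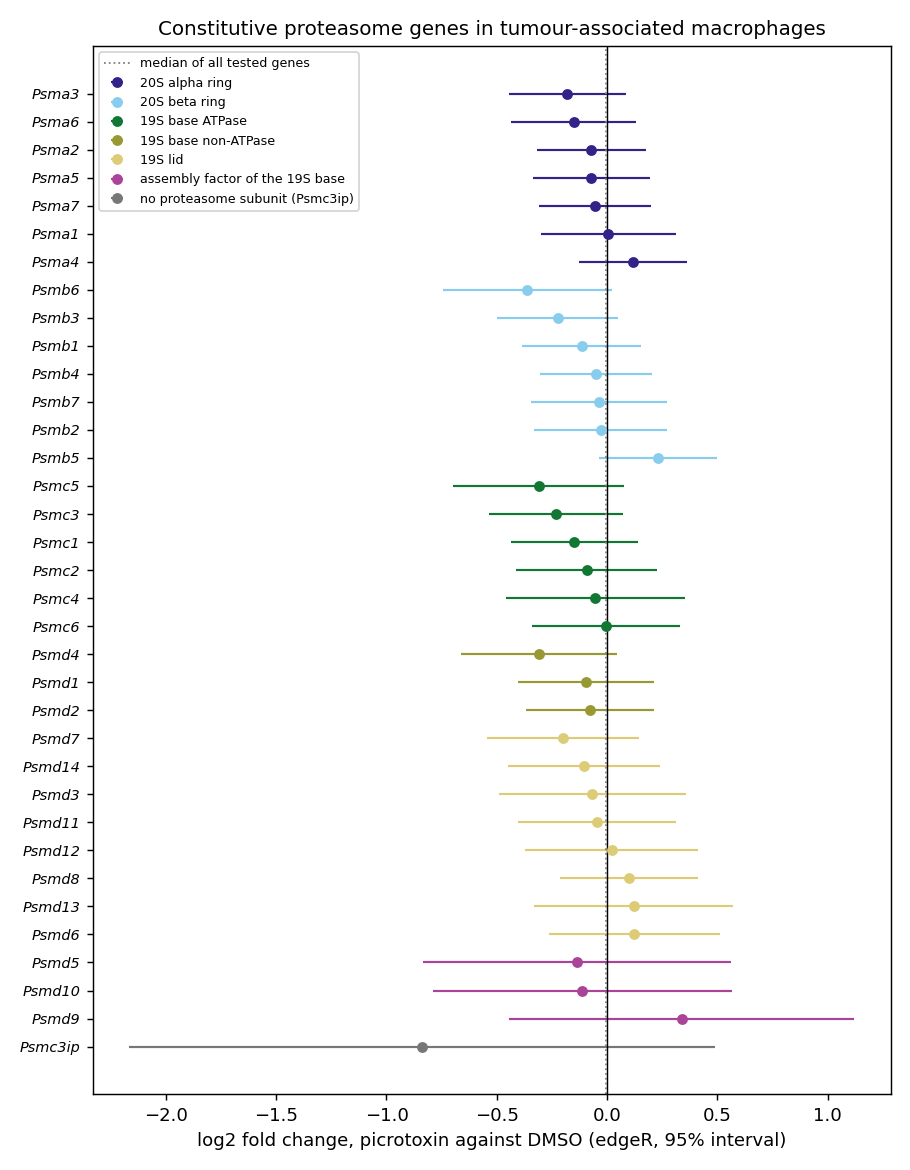
Log2 fold change with picrotoxin against DMSO for the 35 members (x axis; point, edgeR estimate; bar, 95% interval), grouped by role and coloured accordingly, with the median of all tested genes dotted. Every interval includes 0, 27 points lie to the left of it, and the widest interval belongs to Psmc3ip.

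The estimates of the catalytic beta subunits lay on both sides of 0, and none passed the test. Psmb5 (chromosome 14, 54614119 to 54618022, minus strand), which carries the chymotrypsin-like site, had a lowest, median and highest level of 39.5, 42.5 and 50.7 normalised molecules (counts divided by a size factor of the library) in DMSO libraries and 44.9, 51.3 and 58.1 in picrotoxin libraries. All 6 picrotoxin libraries lay above the DMSO mean, yet DMSO 4 and DMSO 5 overlapped the lower picrotoxin libraries. Averages were 44.0 ± 4.88 under DMSO and 51.3 ± 5.77 under picrotoxin (SD, n = 6 libraries each), or 0.23 higher on the log2 scale (SE 0.13, adjusted p = 0.74 in edgeR).

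Psmb6 (chromosome 11, 70525367 to 70527858, plus strand) carries the caspase-like site. It ranged from 24.1 over a median of 40.3 to 46.8 normalised molecules in DMSO libraries and from 17.3 over 27.9 to 49.4 in picrotoxin libraries. The groups overlapped through DMSO 4, the lowest of its group, and picrotoxin 3, the highest of all 12 libraries. Averages were 39.0 ± 8.87 under DMSO and 30.1 ± 10.6 under picrotoxin (SD, n = 6 libraries each), a log2 fold change of -0.36 (SE 0.19, unadjusted p = 0.0627, adjusted p = 0.683 in edgeR). The estimate was -0.55 without picrotoxin 3 and -0.48 without DMSO 4, the libraries that ran against the difference of the groups. In these fits alone among those with a library left out, the unadjusted p was under 0.05 (adjusted p = 0.448 and 0.438 in edgeR). Without picrotoxin 5 the estimate was -0.25 (adjusted p = 0.831 in edgeR). Psmb6 also varied most among members relative to counting noise within the groups, with a chi-square per degree of freedom of 2.83, where the median of the 35 was 1.08.

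Psmb7 (chromosome 2, 38588036 to 38644087, minus strand), which carries the trypsin-like site, lay between 32.3 and 45.4 normalised molecules in DMSO libraries with a median of 37.8, and between 28.6 and 48.2 in picrotoxin libraries with a median of 36.1. The picrotoxin libraries enclosed the DMSO libraries, and the log2 fold change was -0.036 (SE 0.15, adjusted p = 0.981 in edgeR). Described as a ratio of molecule counts within a library, Psmb6 to Psmb5 was 0.898 ± 0.229 in DMSO (0.491 to 1.18) and 0.589 ± 0.223 with picrotoxin (0.385 to 1.02; SD, n = 6). The 5 picrotoxin libraries other than replicate 3 lay below all DMSO libraries but replicate 4, so that the same libraries made the groups overlap as for Psmb6 alone. This ratio was chosen after the levels were known and is given without a test.

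The other beta subunits are structural. Psmb3 ranged from 47.7 over a median of 50.8 to 69.7 normalised molecules in DMSO libraries and from 37.5 over 47.0 to 51.2 in picrotoxin libraries, where 6 of 6 lay below the DMSO mean. Its log2 fold change was -0.22 (SE 0.13, adjusted p = 0.753 in edgeR). Psmb1, Psmb2 and Psmb4 gave -0.11, -0.029 and -0.049, so that Psmb5 was the single beta subunit with a positive estimate among 7, and the median of the beta ring was -0.049.

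**Figure D2:**
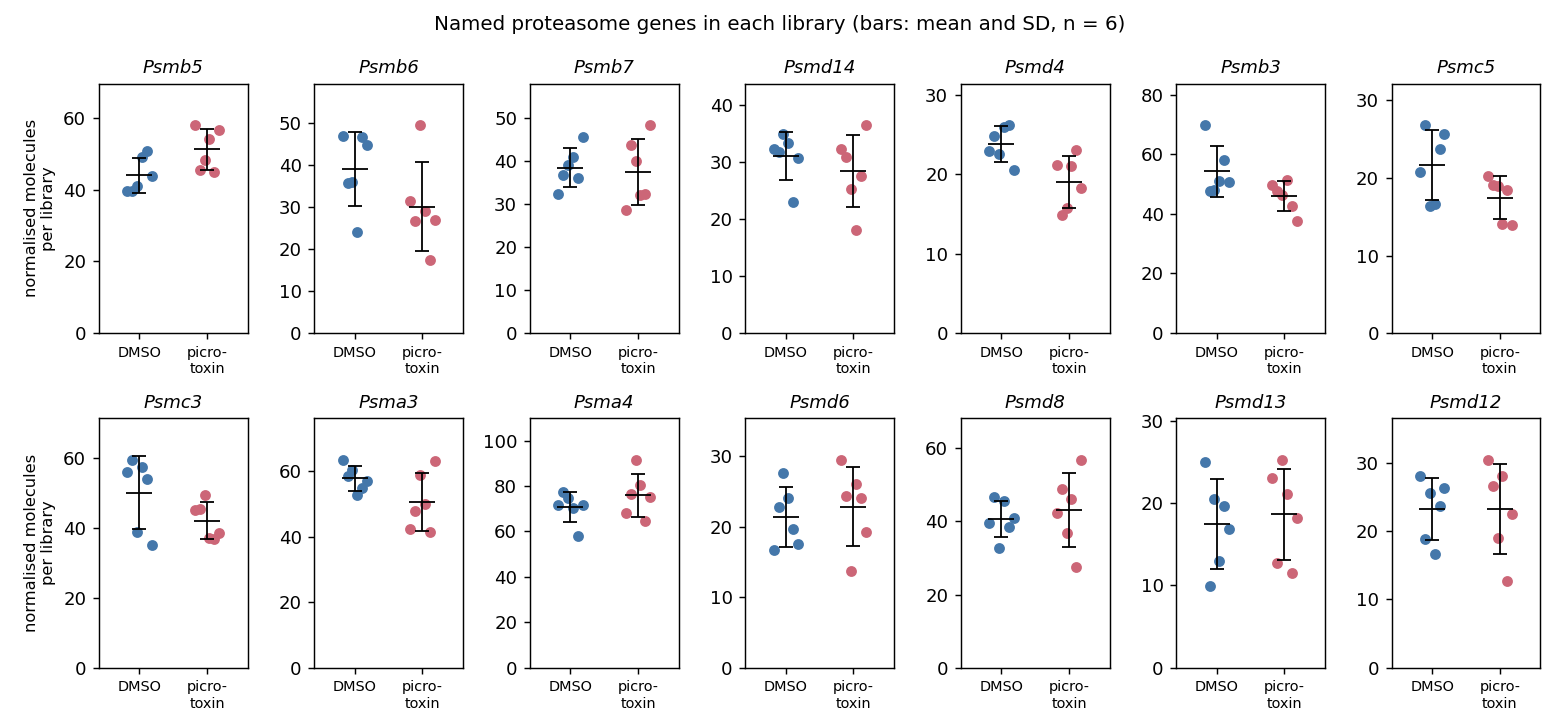
Normalised molecules per library (y axis, from 0) of the 14 named members in DMSO (blue) and picrotoxin libraries (red), with the mean and SD of each group (n = 6). The groups overlap for all 14, and for Psmb5 all picrotoxin libraries lie above the DMSO mean whereas for Psmd4, Psmb3, Psmc5 and Psmc3 all lie below it.

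The alpha ring, which gates the barrel, gave 7 estimates between -0.18 and 0.12 and a median of -0.072. Psma3 lay at 52.9, 57.9 and 63.5 normalised molecules (lowest, median, highest) in DMSO libraries and at 41.4, 49.0 and 63.2 in picrotoxin libraries. The picrotoxin libraries spread further downwards, and the log2 fold change was -0.18 (SE 0.13, adjusted p = 0.806 in edgeR). Psma4 pointed the other way, at 58.1, 71.8 and 77.5 in DMSO and 64.4, 75.7 and 91.5 in picrotoxin libraries, with a log2 fold change of 0.12 (SE 0.12, adjusted p = 0.879 in edgeR). Psma6 lay below the DMSO mean in 6 of 6 picrotoxin libraries, with an estimate of -0.15.

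In the 19S base, the AAA ATPases Psmc1 to Psmc6 form the ring that unfolds substrates. All 6 estimates were below 0, from -0.31 (Psmc5) to -0.0053 (Psmc6), with a median of -0.12. Psmc5 (chromosome 11, 106256154 to 106263120, plus strand) ranged from 16.4 over a median of 22.3 to 26.8 normalised molecules in DMSO libraries and from 13.9 over 18.7 to 20.3 in picrotoxin libraries. The 6 picrotoxin libraries were below the DMSO mean but overlapped the lower DMSO libraries, with an SE of 0.19 (adjusted p = 0.756 in edgeR). Psmc3 ranged from 35.2 over 55.1 to 59.6 in DMSO and from 36.8 over 41.9 to 49.4 in picrotoxin libraries, a log2 fold change of -0.23 (SE 0.15, adjusted p = 0.757 in edgeR). For Psmc3, 4 DMSO libraries lay above every picrotoxin library and the other two lay among or below them.

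The non-ATPase subunits of the base include Psmd1 and Psmd2, the scaffolds that dock shuttle factors, and Psmd4, which binds ubiquitin chains. Psmd4 (chromosome 3, 95032694 to 95042614, minus strand) lay at 20.5, 23.9 and 26.2 normalised molecules (lowest, median, highest) in DMSO libraries and at 14.9, 19.6 and 23.0 in picrotoxin libraries. All 6 picrotoxin libraries lay below the DMSO mean, and the 3 highest of them overlapped the lowest DMSO libraries. Averages were 23.8 ± 2.22 under DMSO and 19.02 ± 3.26 under picrotoxin (SD, n = 6 libraries each), a log2 fold change of -0.31 (SE 0.17, unadjusted p = 0.0867, adjusted p = 0.738 in edgeR). Psmd1 and Psmd2 gave -0.096 and -0.077.

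The lid, which carries the deubiquitinase Psmd14, was split, with 4 of 8 estimates on each side of 0 and a median of -0.012, Psmd12 being at -0.036 when scaled by library totals and at -0.017 by upper quartile. Psmd14 (chromosome 2, 61711694 to 61800376, plus strand) lay at 22.9, 32.0 and 34.8 normalised molecules in DMSO and 18.1, 29.2 and 36.4 in picrotoxin libraries. The picrotoxin libraries enclosed those of DMSO, and the log2 fold change was -0.11 (SE 0.17, adjusted p = 0.938 in edgeR). Among the scaffold subunits of the lid, the estimates above 0 were 0.12 for Psmd6, 0.12 for Psmd13, 0.098 for Psmd8 and 0.022 for Psmd12.

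For these 4 lid genes the spread of the libraries was wide relative to the difference. Psmd6 lay between 16.6 and 27.7 normalised molecules in DMSO and between 13.7 and 29.5 in picrotoxin libraries, with medians of 21.2 and 24.3. Psmd8 lay between 32.8 and 46.7 in DMSO and between 27.6 and 56.8 in picrotoxin libraries, with medians of 40.3 and 44.3. Psmd13 lay between 9.93 and 24.97 in DMSO and between 11.5 and 25.2 in picrotoxin libraries, with medians of 18.2 and 19.6. In Psmd6, Psmd8 and Psmd12 the picrotoxin libraries reached both lower and higher than the DMSO libraries, Psmd12 lying between 16.7 and 28.1 in DMSO and between 12.7 and 30.4 in picrotoxin libraries, with medians of 24.7 and 24.5. The remaining lid genes Psmd3, Psmd7 and Psmd11 gave -0.066, -0.20 and -0.047, Psmd7 being the lowest of the lid.

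The chaperones of the base and Psmc3ip were too scarce for close estimates. Psmd5, Psmd9 and Psmd10 had means of 4.75 to 6.72 normalised molecules over all libraries and log2 fold changes of -0.14, 0.34 and -0.11 with standard errors of 0.33 to 0.38. Psmc3ip, at a mean of 1.77, gave -0.84 with a 95% interval from -2.17 to 0.49 (adjusted p = 0.817 in edgeR).

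Summed over the members, the proteasome genes took 0.572% ± 0.0229 of all molecules in DMSO libraries (0.543% to 0.603%) and 0.524% ± 0.0327 in picrotoxin libraries (0.473% to 0.555%; SD, n = 6). The highest picrotoxin libraries overlapped the lowest DMSO libraries, and the Wilson 95% interval of the lowest, picrotoxin 5, was 0.444% to 0.503%. The ribosomal RNA precursor Rn45s took 10.1% ± 2.42 of the molecules in DMSO and 12.95% ± 1.32 in picrotoxin libraries, and with it left out of the total the shares of the members were 0.637% ± 0.0142 and 0.602% ± 0.0344 (SD, n = 6). No test was made of these sums.

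The proportion of core to cap differed between groups by less than the spread of the libraries. In normalised molecules the 20S core summed to 764 ± 45.9 in DMSO and 725 ± 56.0 in picrotoxin libraries, and the 19S cap to 533 ± 23.9 and 498 ± 33.5 (SD, n = 6). The core-to-cap ratio of molecule counts was 1.44 ± 0.122 in DMSO and 1.46 ± 0.0951 in picrotoxin libraries. Picrotoxin 5 was lowest of all 12 libraries in both sums, at 623 for the core and 459 for the cap, and without it the median log2 fold change of the members was -0.046. Counting noise alone would give the sum over all members an SD of 36.3 in DMSO, where 43.8 was observed. In picrotoxin libraries it would give 35.2, where 82.5 was observed. Picrotoxin 5 was at 1096 in that sum, and the other picrotoxin libraries lay between 1199 and 1316.

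**Figure D3:**
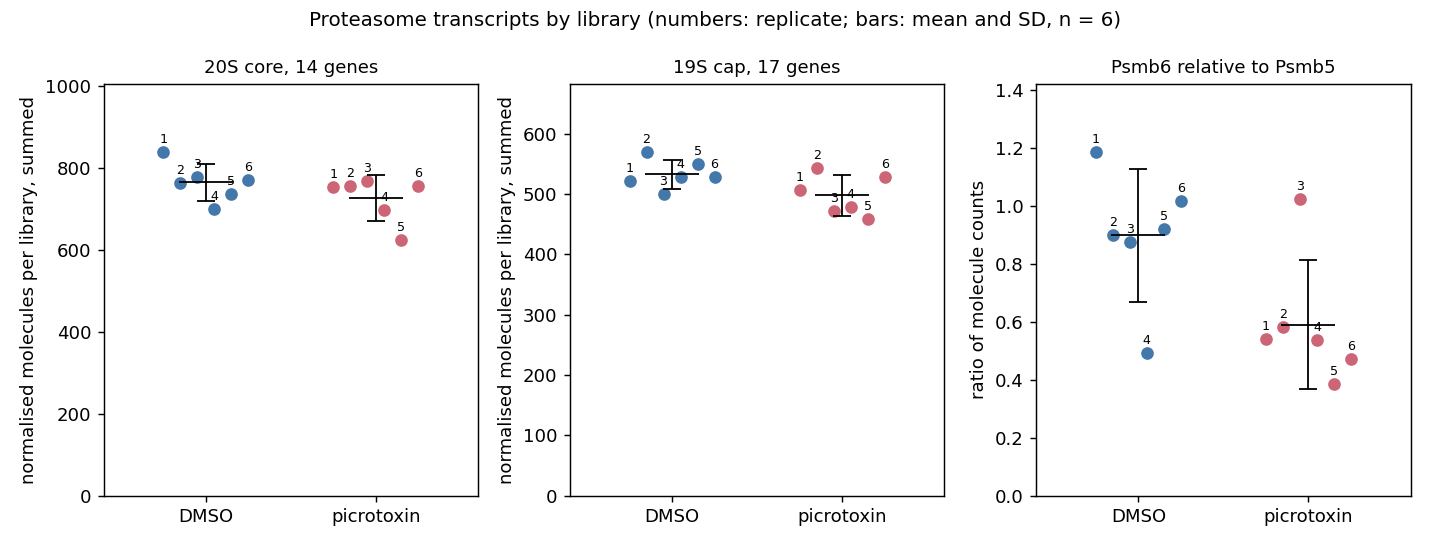
Summed normalised molecules of the 14 core genes (left) and the 17 cap genes (middle), and the ratio of Psmb6 to Psmb5 molecule counts (right), for each library (points, numbered by replicate) with the mean and SD of each group (n = 6) on axes from 0. Picrotoxin 5 is lowest in both sums, and DMSO 4 and picrotoxin 3 stand with the other group in the ratio.

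The levels of core and cap genes formed overlapping ranges, with the chaperones below both. Mean DMSO levels of core genes ran from 38.4 (Psmb7) to 72.9 (Psmb1) normalised molecules and those of cap genes from 17.5 (Psmd13) to 50.2 (Psmc3). Those of the chaperones ran from 4.23 (Psmd9) to 7.06 (Psmd10). Divided by the length of the principal transcript, levels of core genes ran from 20.3 (Psma3) to 76.9 (Psma7) normalised molecules per kilobase. Those of cap genes then ran from 8.79 (Psmd13) to 31.2 (Psmc1), and those of the chaperones from 1.42 (Psmd5) to 4.94 (Psmd10). Because priming on poly(A) counts transcripts near their 3′ end, length does not enter these counts as in full-length sequencing. The order per kilobase differs from that of the counts and is a description.

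**Figure D4:**
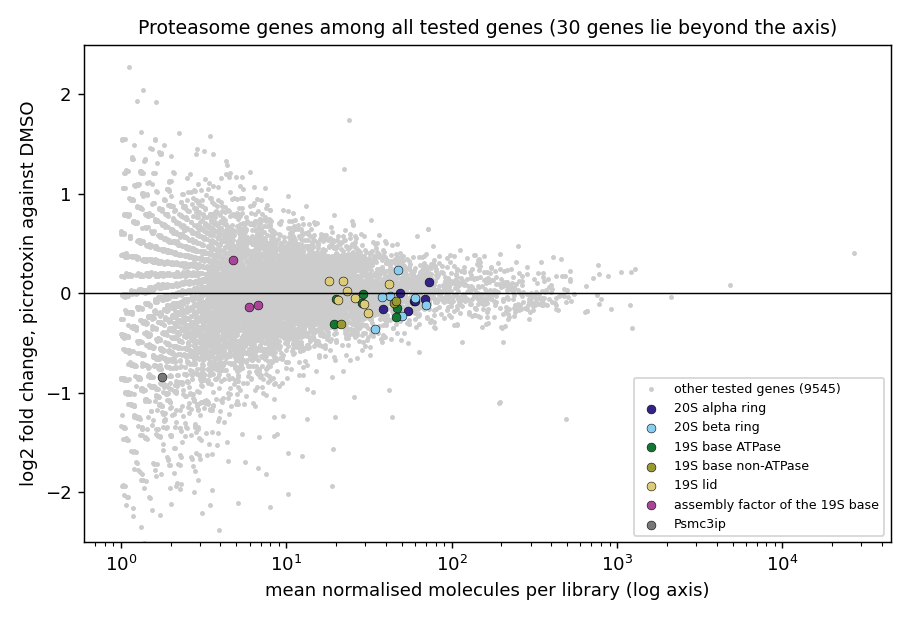
Log2 fold change with picrotoxin against DMSO (y axis) against the mean normalised molecules per library (x axis, log scale) for 9545 other tested genes (grey) and the 35 members (coloured by role); 30 genes lie beyond the y axis. The members sit inside the cloud of genes at the same level, most of them slightly below 0.

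All 36 related genes listed for the ubiquitin-proteasome pathway were in the table and were tested. None had an adjusted p under 0.05 in edgeR, and 22 log2 fold changes were below 0 and 14 above, with a median of -0.041. An unadjusted p under 0.05 was obtained for 3 of 36 in edgeR, against 7.77% of all tested genes. In DESeq2 it was obtained for 1 of 36, Psmb10, against 3.82%. Neither count stood out from these shares.

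The 3 were an assembly chaperone, an immune subunit and a transcription factor. Psmg1, a chaperone of the alpha ring, lay at 4.16, 7.75 and 11.3 normalised molecules (lowest, median, highest) in DMSO and 1.15, 3.10 and 8.41 in picrotoxin libraries, with a log2 fold change of -0.83 (SE 0.36, adjusted p = 0.574 in edgeR). Psmb10, the inducible counterpart of Psmb7, lay at 56.3, 65.0 and 89.5 in DMSO and 44.9, 56.5 and 63.6 in picrotoxin libraries, a log2 fold change of -0.31 (SE 0.14, adjusted p = 0.602 in edgeR). Nfe2l2, a transcription factor of the oxidative stress response that acts through antioxidant response elements, lay at 54.6, 57.3 and 81.6 in DMSO and 66.7, 75.0 and 81.8 in picrotoxin libraries, a log2 fold change of 0.27 (SE 0.12, adjusted p = 0.615 in edgeR). In all of them the groups overlapped.

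The next smallest p-values belonged to the shuttle factor Ubqln4, the small cap subunit Sem1 and the activator subunit Psme2, with log2 fold changes of -0.90, 0.20 and 0.18 (SE 0.54, 0.12 and 0.12). The count of Psme2 is uncertain, since 794 bases of its transcript match Psme2b at 99.4% identity. Nfe2l1, which drives proteasome genes when the protease is inhibited, gave 0.013 (SE 0.20).

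The immune subunits were compared with the constitutive subunits they replace. As a ratio of molecule counts in a library, Psmb8 to Psmb5 was 3.32 ± 0.879 in DMSO and 2.79 ± 0.593 in picrotoxin libraries, Psmb10 to Psmb7 was 1.88 ± 0.569 and 1.54 ± 0.360, and Psmb9 to Psmb6 was 0.850 ± 0.404 and 0.920 ± 0.301 (SD, n = 6). In each pair the means of the groups lay closer together than 1 SD of the DMSO libraries. DMSO 1 and DMSO 2 held the highest ratios of Psmb8 to Psmb5 (4.76 and 4.05) and of Psmb10 to Psmb7 (2.77 and 2.35). The other DMSO libraries lay at 2.60 to 2.925 and at 1.40 to 1.84. Picrotoxin libraries lay at 2.13 to 3.37 and at 1.27 to 2.23. Psmb8 itself gave a log2 fold change of -0.016 and Psmb9 of -0.25 (adjusted p = 0.991 and 0.853 in edgeR).

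Several counts may hold molecules of other genes. In GENCODE transcripts, 11 of 35 members share a segment of at least 100 bases at 97% identity or more with another gene. For 4 of them (Psma4, Psmb7, Psmc3ip and Psmd13) such a gene was among those tested here. The 11 include Psmb5 with Gm3375 (796 bases at 98.9%) and Psma3 with Gm13835 (665 bases at 100%), neither of which was tested. Exons of 2 members overlap another gene on the same strand and those of 9 on the other strand, Psma4, Psmb7, Psmc3 and Psmd13 being among the latter, and whether counting used the strand is not given in the sources used here. The part of the matrix transcripts in these values was not tested beyond a fit with their score as a covariate. In that fit 0 of 35 members had an unadjusted p under 0.05 in edgeR, against 5.82% of all tested genes. The median log2 fold change of the members was -0.11. Without the covariate, 10 of 11 tested fibroblast and matrix markers were lower with picrotoxin at that threshold. The fit thus cannot fully separate the matrix part from treatment, and no conclusion is drawn from its count. Without DMSO 5, the library richest in matrix transcripts, the median was -0.086. The count was again 0, against 6.38% of all tested genes.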

How the data were processed

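RNA of 100 sorted cells per library was fragmented by heat and primed with oligo-dT carrying a molecular barcode. The authors mapped reads with STAR to mm10 with the refFlat annotation, and the table they deposited gives molecule counts, as whole numbers, for each gene symbol in 12 libraries. Handling of multiply mapped reads and barcode errors is not given in the sources used here.

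Groups were taken from the labels. Genes with a mean above 1 normalised molecule (counts divided by DESeq2 size factors) were tested with edgeR 4.0.16 (TMM, quasi-likelihood, two-sided, Benjamini-Hochberg), and with DESeq2 1.42.0 and limma 3.58.1 (voom) as alternatives. Standard errors came from the log2 fold change and the F statistic. Tests were tested on simulated data. Positions and lengths are from GENCODE for GRCm38 and shared segments from blastn 2.17.0. The 30 within-group pairs of libraries each differed by more than counting noise (chi-square over its degrees of freedom, 1.23 to 3.15), and all 12 libraries were kept.

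Members, lists and ratios were chosen with earlier results of these data known. Named members were the catalytic subunits, Psmd14, Psmd4 and up to 6 per direction by smallest p among those with a mean count of at least 10, and related genes were named by the 6 smallest p-values. Other members are named at the ends of ranges or to complete a role, chosen after their values were seen.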

Additional observations from a re-analysis of the deposited data

Results flagged for a closer look

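In each group of 6 libraries, the highest and lowest level of every member and sum was compared with the rest of its group. Of 74 such comparisons, 6 had a library standing apart (a gap to its nearest neighbour above 0.625 of the range), where chance gives about 3.7. DMSO 5, the library richest in matrix transcripts, was low for 3 genes, namely Psma4 at 58.08 normalised molecules (others 70.5 to 77.45), Psmb4 at 48.26 (others 61.22 to 66.53) and Psmd14 at 22.9 (others 30.76 to 34.83). DMSO 1 was high for Psmb1 at 96.76 (others 59.37 to 72.72), DMSO 2 was high for Psmc3ip at 5.958 (others 0.9276 to 2.454), and picrotoxin 3 was high for Psmd11 at 35.75 (others 21.85 to 26.54).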

How the results depend on the processing

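No member had an adjusted p under 0.05 under any of 11 alternative settings or without any single library. The number with an unadjusted p under 0.05, 0 of 35 in the report, was 3 of 35 with library totals (Psmb3, Psmb6 and Psmd4). It was 1 with upper quartile scaling, 1 with no filter beyond 1 count and 1 with the replicate block (Psmb6 in each). Over all tested genes the share was 7.78% with library totals, 7.62% with upper quartile scaling, 7.41% with no filter beyond 1 count and 7.76% with the block. With a library left out the number was 0 to 1 (Psmb6 without DMSO replicate 4 or picrotoxin replicate 3, Psmc3 without DMSO replicate 6). The shares over all tested genes in these 3 fits were 8.2%, 7.07% and 6.6%. The median log2 fold change of the members stayed between -0.13 and -0.064 under the alternatives. When single libraries were left out it stayed between -0.13 (without picrotoxin replicate 2) and -0.046 (without picrotoxin replicate 5). With a mean above 10, 31 members were tested and 26 estimates lay below 0. In the other settings 23 to 29 of 35 estimates lay below 0. Library totals moved the median of all genes to -0.063 and that of the members to -0.13. Psmd12 changed sign to -0.0033 with limma-voom, -0.036 with library totals, -0.017 with upper quartile scaling, -0.0053 with a mean above 10 and -0.14 in replicates 3 to 6 alone, where Psmd6 was at -0.054. Without single libraries Psmd12 ranged from -0.077 to 0.14 and Psmb7 from -0.13 to 0.034. The cause was not tested. The other named genes kept their sign under all settings run, but some estimates came close to 0, namely Psmd14 at -0.0033 without picrotoxin replicate 4, Psmd8 at 0.0017 without picrotoxin replicate 6, Psmd13 at 0.016 without DMSO replicate 2, and Psma4 at 0.014 and Psmd8 at 0.0051 with the matrix marker score as a covariate. The difference in the share of the members, -0.048 percentage points, was -0.035 without Rn45s and -0.049 in replicates 3 to 6. Same-numbered libraries did not deviate together (correlations -0.016 to 0.047, with none of 6 libraries closest to its own number). The numbers were thus not taken to pair the libraries. Among the 35 members the block changed no other call. Across all 9580 tested genes, however, the block raised the number passing the adjusted threshold of 0.05 from 5 to 43. With a term for replicate numbers 1 and 2 against 3 to 6 the number was 27. In replicates 3 to 6 alone it was 49, and with the matrix marker score as a covariate it was 0. The design left the 95% intervals of 11 members reaching beyond 0.5 on the log2 scale on at least 1 side.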
